A study of Mus musculus with 6 samples.

Results

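Endothelial cells line the vessels of the kidney, and 10 genes that mark them were followed here in whole kidneys of control mice and of mice in which the transferrin receptor gene was targeted in the nephron lineage. The 10 genes were chosen by name, as pan-endothelial and glomerular capillary genes, from the 24422 genes of the count tables. They were the junction and adhesion genes Pecam1, Cdh5 and Esam, the receptor genes Flt1, Kdr and Tek, the luminal coat and diaphragm genes Emcn and Plvap, the membrane traffic gene Ehd3, and Egfl7, which encodes a secreted protein. All 10 were counted in every library, and all 10 passed the filter on low counts, at mean levels between the 74.4th and 97.9th percentile of the 16509 genes tested.

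Poly-A RNA was counted per gene in 6 kidneys of C57BL/6 mice at postnatal day 13, all on a diet with 220 ppm iron. The Control group held 3 libraries labelled wild type, and the TfR1 knockout group held 3 libraries of the genotype Tfr1f/f;SixCre, in which the floxed receptor gene is cut by a Cre driven by Six2. Six2Cre acts in the progenitors of the nephron tubules and not in endothelial cells, so endothelial cells are not the cells it targets, and the study describes tubule cells that kept the receptor. The study describes 3 mice per model in its RNA-seq, compared with wild type littermates. The sample labels do not say whether the Control mice carried the floxed allele, nor whether each library came from a separate animal. The p-values measure the spread between these libraries, which may be partly technical.

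The vessels of the kidney are diverse. Glomerular capillaries are fenestrated and lie against podocytes, peritubular capillaries surround the tubules, and vasa recta run through the medulla. VEGF-A, made by podocytes and tubule cells, signals to endothelial cells through Kdr, whereas Flt1 binds the same ligand tightly with weak signalling and limits its action. Tek, also named Tie2, is activated by Angpt1 and is bound by Angpt2, which often opposes Angpt1. Pecam1, Cdh5 (VE-cadherin) and Esam hold endothelial cells together, Emcn is a sialomucin of the luminal surface, and Plvap forms the diaphragms of fenestrae and caveolae. Ehd3 is a membrane traffic protein enriched in glomerular capillaries, and Egfl7 is secreted by endothelial cells and takes part in tube formation.

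Total counts ran from 16591156 to 22898008 per library, so counting error was small for these genes and the 3 libraries per group set the precision. Kidney markers were present in every library, with Umod between 1475 and 50178 normalized counts. The targeted gene Tfrc averaged 5229 ± 1434 normalized counts in Control and 5640 ± 1482 in knockout kidneys (SD, 3 libraries each, DESeq2 adjusted p 0.853), so the total count of this gene did not check the group labels. A pair of libraries stood apart. Control replicate 3 had the highest Control value of all 10 endothelial genes, at 1.21 to 2.16 times the mean of the other two Control libraries (median 1.52, against 0.995 over all genes tested). Its summed thick ascending limb markers were 45941 normalized counts, against 85377 and 93793 in Control replicates 1 and 2, and its summed pericyte, mesangial and smooth muscle markers were 30473, against 18068 and 19628. TfR1 knockout replicate 2 divided the 10 genes among themselves, as described further on. Results that rest on either library are given with and without it. Control replicates 1 and 2 were the most alike of all pairs. Their squared count differences averaged 10.6 times counting error per gene, against 79.8 and 84.1 for each with Control replicate 3. The next most alike pair, TfR1 knockout replicates 1 and 3, had 37.8. Fits without Control replicate 3 thus rest on a Control spread that may understate the spread between animals.

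Summed over the 10 genes, endothelial RNA was not measurably different between the groups. Scaled to each library's total (CPM), the Control libraries held 1303, 1233 and 2105 and the knockout libraries 1349, 1447 and 1759, each in the order of the replicate number. Control replicates 1 and 2 were the lowest libraries and Control replicate 3 was the highest, so the knockout values fell inside the Control range (1547 ± 484 against 1518 ± 214 CPM, SD, n = 3 each). As size-factor normalized counts, the sums were 24593, 23799 and 37587 in Control and 25985, 32371 and 33266 in TfR1 knockout kidneys. On that scale the geometric mean of the 10 genes was 2439 ± 629 in Control and 2608 ± 273 in TfR1 knockout kidneys (SD, n = 3 each). Which group mean was higher thus depended on the scaling. In whole-kidney RNA, a change in the number of endothelial cells cannot be told apart from a change in RNA per cell.

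With p adjusted over all genes and a threshold of 0.05, Flt1 rose and the other 9 genes did not pass (DESeq2 Wald test). Thus 1 of 10 was called higher and 0 lower, where 14.9% of all genes tested were called, 7.74% higher and 7.18% lower. None of the 10 passed the second rule, which also asks for a 2-fold change and which 4.41% of genes met as higher and 4.46% as lower in the knockout. With edgeR's quasi-likelihood test 0 of 10 were called, beside 6.02% of all genes, and with limma-voom 0 of 10, beside 6.15%. At an unadjusted p under 0.05 the counts were 1 with DESeq2, 1 with edgeR and 2 with limma-voom, all higher. The log2 fold changes of the 10 genes had a median of 0.05, beside 0.007 over all genes tested, with 5 above and 5 below 0. Without Control replicate 3 the median was 0.33, beside 0.012 over all genes, and 2 of 10 genes were called higher (Flt1 and Kdr), with a background of 14.3%. The Control group of that fit is the most alike pair of libraries, so its calls may rest on too small a spread.

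**Figure D1:**
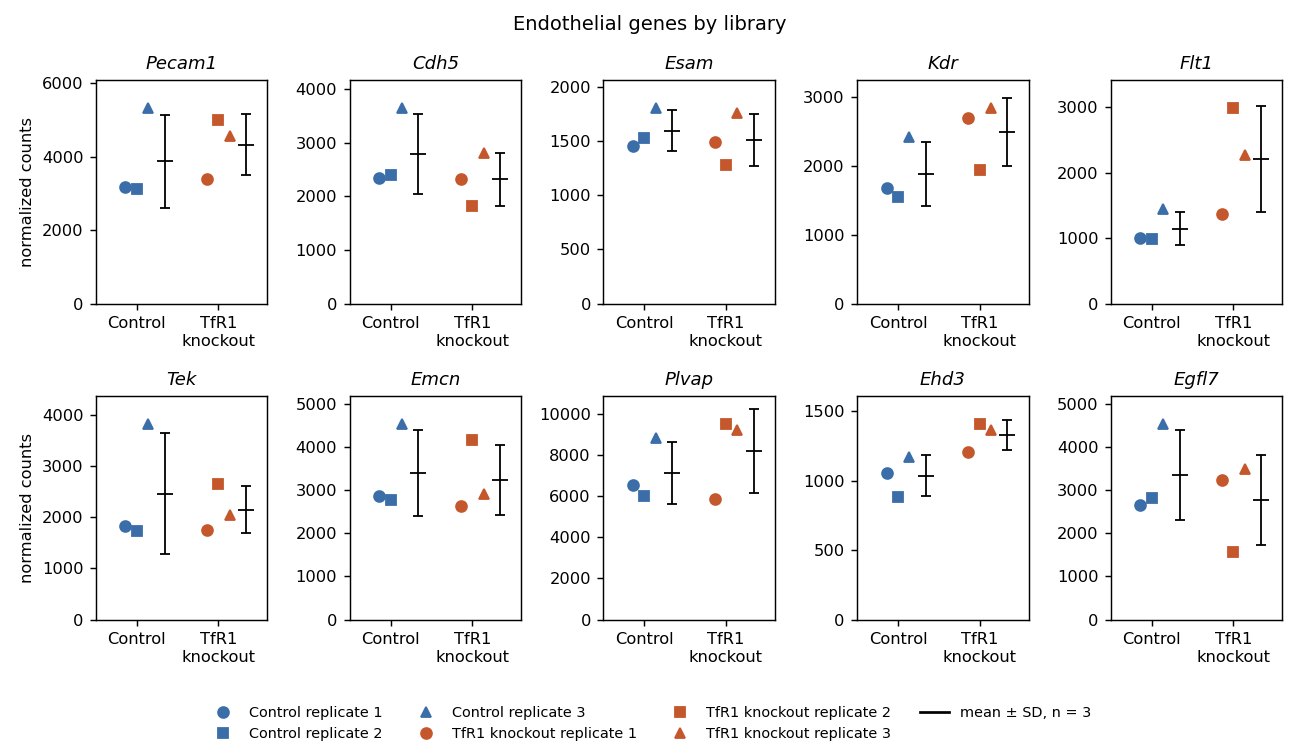
Normalized counts (raw counts divided by DESeq2 size factors, linear axis from 0) of the 10 endothelial genes in each of the 6 libraries, with the mean and SD of each group (n = 3). Control replicate 3 is the highest Control library in every panel, and the groups are fully separated only for Ehd3.

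Among the receptor genes, Flt1 and Kdr lay higher in most knockout libraries and Tek did not differ measurably. Flt1 (mm9 chr5:148373180-148537587, minus strand) had 1007, 994 and 1447 normalized counts in Control and 1375, 2994 and 2276 in TfR1 knockout kidneys. TfR1 knockout replicates 2 and 3 lay above every Control library, whereas TfR1 knockout replicate 1 lay just below Control replicate 3, so the groups overlapped. The group means were 1149 ± 258 and 2215 ± 811 (SD, n = 3 each), a 1.93-fold difference (95% interval 1.25 to 2.97, log2 0.95, SE 0.32) with a DESeq2 adjusted p of 0.0251.

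The call of Flt1 rested on the test and on single libraries. Its adjusted p was 0.101 with edgeR and 0.111 with limma-voom, at log2 fold changes of 0.93 and 0.89. It was called in 2 of the 6 fits that left out a library, and the log2 fold change in these fits ran from 0.67, without TfR1 knockout replicate 2 (DESeq2 adjusted p 0.15), to 1.20 without TfR1 knockout replicate 1. The adjusted p was 0.168 without Control replicate 1, 0.164 without Control replicate 2 and 0.117 without TfR1 knockout replicate 3. Counts are per gene, so the membrane-bound and the soluble form of the receptor, which come from the same gene, were not separated.

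Flt1 is also made by monocytes, and macrophage markers were higher in the knockout kidneys. Of 10 macrophage and leukocyte markers 7 rose and 0 fell, with a median log2 fold change of 1.49, and their sums ran from 2749 to 4357 normalized counts in Control and from 7652 to 9736 in TfR1 knockout kidneys. The macrophage sum of TfR1 knockout replicate 2, the library with the highest Flt1, was the lowest of the 3 knockout libraries (7652). All 10 markers had positive log2 fold changes. Among those not called, Adgre1 and Csf1r, which define macrophages, had adjusted p values of 0.146 and 0.199 (DESeq2). Without Control replicate 3, 8 markers were called higher, where 14.3% of all genes were called. With TfR1 knockout replicate 2 also out it was 10, where 18.0% of all genes were called. The part of macrophages in the Flt1 difference was not tested further.

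Kdr (mm9 chr5:76328852-76374483, minus strand), the main signalling receptor of VEGF-A, had 1683, 1549 and 2413 normalized counts in Control and 2694, 1931 and 2839 in TfR1 knockout kidneys. TfR1 knockout replicates 1 and 3 lay above every Control library and TfR1 knockout replicate 2 lay below Control replicate 3. The 1.32-fold difference (95% interval 0.936 to 1.87, log2 0.40, SE 0.25) did not pass the test (DESeq2 adjusted p 0.307, edgeR 0.31). Without Control replicate 3 the log2 fold change of Kdr was 0.62, at a DESeq2 adjusted p of 0.0495. With TfR1 knockout replicate 2 left out as well, which leaves 2 against 2 libraries, it was 0.78 (adjusted p 2.98e-07), and that of Flt1 was 0.87 (adjusted p 0.00417). This pair of exclusions was chosen after the data were seen, and 18.0% of genes passed in that fit. For Kdr it takes out the highest Control value (2413) and the lowest knockout value (1931). The choice itself thus widened the gap, and the p of Kdr in that fit is no support for a difference.

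Tek (mm9 chr4:94405980-94541667, plus strand) had 1820, 1725 and 3827 normalized counts in Control and 1754, 2646 and 2042 in TfR1 knockout kidneys. Control replicate 3 held the highest value by far, and all 3 knockout values lay inside the Control range. The fold difference was 0.874 (95% interval 0.546 to 1.40, DESeq2 adjusted p 0.768), and its log2 value went from -0.19 to 0.27 when Control replicate 3 was left out.

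**Figure D2:**
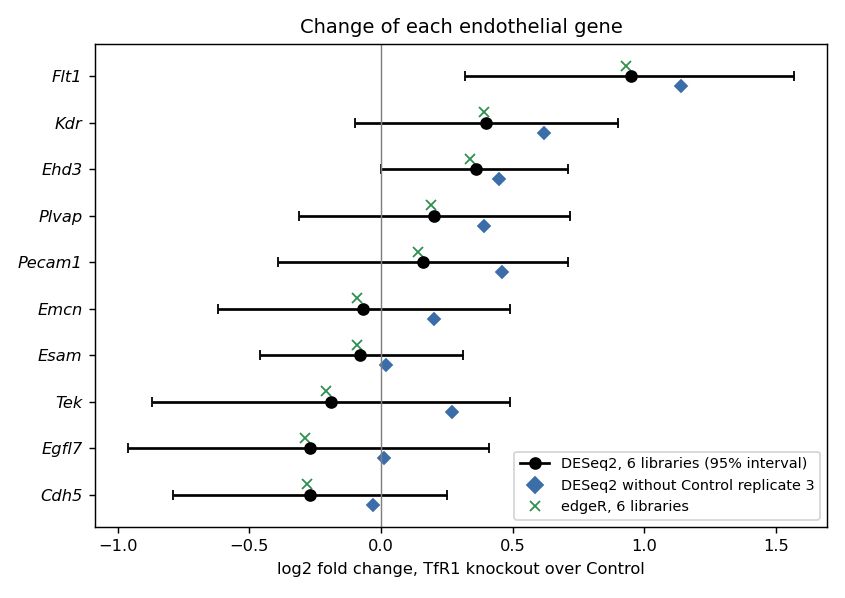
Log2 fold change (TfR1 knockout over Control) of the 10 endothelial genes, with black points and 95% intervals from DESeq2 on 6 libraries, green crosses from edgeR and blue diamonds from DESeq2 without Control replicate 3. The interval of Flt1 lies above 0, and every value moves up when Control replicate 3 is left out, with Esam, Tek, Emcn and Egfl7 crossing 0.

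The 3 junction genes lay close to the Control level. Pecam1 (mm9 chr11:106515531-106611942, minus strand) had 3169, 3120 and 5336 normalized counts in Control and 3400, 5011 and 4560 in TfR1 knockout kidneys. Cdh5 (mm9 chr8:106625525-106668402, plus strand) had 2335, 2387 and 3647 in Control and 2324, 1815 and 2802 in TfR1 knockout kidneys. Esam (mm9 chr9:37335663-37345904, plus strand) had 1452, 1523 and 1805 in Control and 1492, 1276 and 1757 in TfR1 knockout kidneys. For each of the 3 genes Control replicate 3 was the highest library of all 6 and the groups overlapped. The fold differences were 1.12 for Pecam1 (95% interval 0.762 to 1.63), 0.83 for Cdh5 (0.579 to 1.19) and 0.947 for Esam (0.725 to 1.24), with DESeq2 adjusted p values of 0.767, 0.547 and 0.84. These are 95% intervals of the DESeq2 model from 3 libraries per group. Their lower ends were 0.579 times the Control level for Cdh5 and 0.725 times for Esam, so falls down to these levels are not excluded.

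The luminal genes did not pass the test either. Plvap (mm9 chr8:74021653-74035668, minus strand), the most abundant of the 10, had 6531, 6014 and 8837 normalized counts in Control and 5857, 9537 and 9217 in TfR1 knockout kidneys, a 1.15-fold difference (95% interval 0.806 to 1.64, DESeq2 adjusted p 0.666). TfR1 knockout replicate 1 was the lowest library and the other two knockout libraries were the highest. Emcn (mm9 chr3:137004031-137095149, plus strand) had 2871, 2771 and 4552 in Control and 2639, 4173 and 2915 in TfR1 knockout kidneys, a fold difference of 0.954 (0.65 to 1.40, adjusted p 0.911). Each group held a single high library, Control replicate 3 and TfR1 knockout replicate 2.

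Ehd3, the glomerular capillary gene of the set (mm9 chr17:74154181-74181433, plus strand), was the only 1 of the 10 whose groups did not overlap, beside 33.7% of all genes tested, or 16.9% counting only genes higher in the knockout. It had 1056, 883 and 1171 normalized counts in Control and 1205, 1411 and 1366 in TfR1 knockout kidneys. The gap between the highest Control and the lowest knockout library was small. The means were 1037 ± 145 and 1327 ± 108 (SD, n = 3 each), and the 1.28-fold difference (95% interval 0.999 to 1.64) did not pass the test (DESeq2 adjusted p 0.184, edgeR 0.197). Its log2 fold change was positive in every fit that left out a library, from 0.25 to 0.45, and passed in 0 of these 6 fits.

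Egfl7 (mm9 chr2:26435534-26448640, plus strand) had 2669, 2830 and 4552 normalized counts in Control and 3244, 1578 and 3492 in TfR1 knockout kidneys. TfR1 knockout replicate 2 was the lowest library and the other two knockout libraries lay inside the Control range. The fold difference was 0.827 (95% interval 0.514 to 1.33, DESeq2 adjusted p 0.662), and the log2 value of -0.27 became 0.01 without Control replicate 3 and 0.01 without TfR1 knockout replicate 2.

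Per kilobase of exon, on a scale that compares levels between genes, Plvap stood first in both groups with 3540 ± 746 normalized counts per kb in Control and 4070 ± 1010 in TfR1 knockout kidneys (SD, n = 3 each). Egfl7 (936 ± 291 in Control), Pecam1 (898 ± 293), Cdh5 (700 ± 186), Emcn (628 ± 185), Esam (556 ± 65.1) and Tek (521 ± 252) followed, and between neighbours among these 6 the difference was smaller than the larger of their SDs. Ehd3 (283 ± 39.6), Kdr (259 ± 63.9) and Flt1 (99.2 ± 22.2) were the lowest. In the knockout kidneys Flt1 was still the lowest of the 10, at 191 ± 70.0 per kb, and Kdr and Ehd3 reached 342 ± 67.0 and 363 ± 29.6. The lengths are those of all annotated exons of a gene together, which lowers the value of a gene with many unused exons.

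Ratios within a library do not depend on its size factor. Each of the other 7 genes was therefore set against the mean log2 level of Pecam1, Cdh5 and Esam in the same library. For Flt1 this log2 ratio was -1.13, -1.18 and -1.18 in Control and -0.73, 0.40 and -0.31 in TfR1 knockout kidneys (means -1.16 ± 0.03 and -0.21 ± 0.57). The 3 Control libraries were nearly identical, Control replicate 3 included, and all 3 knockout libraries lay above them.

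The ratio of Kdr was -0.39, -0.54 and -0.44 in Control and 0.24, -0.23 and 0.01 in TfR1 knockout kidneys, again with no overlap. That of Ehd3 was -1.06, -1.35 and -1.48 in Control and -0.92, -0.68 and -1.05 in TfR1 knockout kidneys, and the nearest libraries of the groups almost touched. Thus the Flt1, Kdr and Ehd3 ratios were higher by 0.95, 0.46 and 0.42 on the log2 scale in 3 of 3 knockout libraries. Of all other genes tested, 22.7% had such a ratio with no overlap, and 13.3% had one that was higher in the knockout. For each of the 3 ratios the exact two-sided permutation p was 0.1, the smallest that 3 against 3 libraries can give (0.233 after Benjamini-Hochberg adjustment over the 7 ratios), so the design could not reach 0.05. With a single junction gene as reference, the Flt1 ratio stayed separated against each of the 3, with differences of 0.71 (Pecam1), 1.16 (Cdh5) and 0.98 (Esam). The Kdr and Ehd3 ratios were separated against Cdh5 (0.67 and 0.62) and Esam (0.50 and 0.45) but overlapped against Pecam1, where the differences were 0.22 and 0.18. Against Pecam1, Kdr in TfR1 knockout replicate 2 (-1.38) lay below all 3 Control libraries (-0.91, -1.01 and -1.14), so the separation of these ratios depended on the reference gene. The ratios of Plvap (difference 0.24, exact permutation p 0.4), Egfl7 (-0.26, p 0.8), Tek (-0.06, p 0.8) and Emcn (-0.00, p 1) overlapped between the groups. The adjusted values of these 4 were 0.7, 0.933, 0.933 and 1. Against Pecam1 alone, however, the Tek and Emcn ratios were separated and lower in the knockout, with differences of -0.30 and -0.24. Against Cdh5 alone or Esam alone both ratios overlapped.

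**Figure D3:**
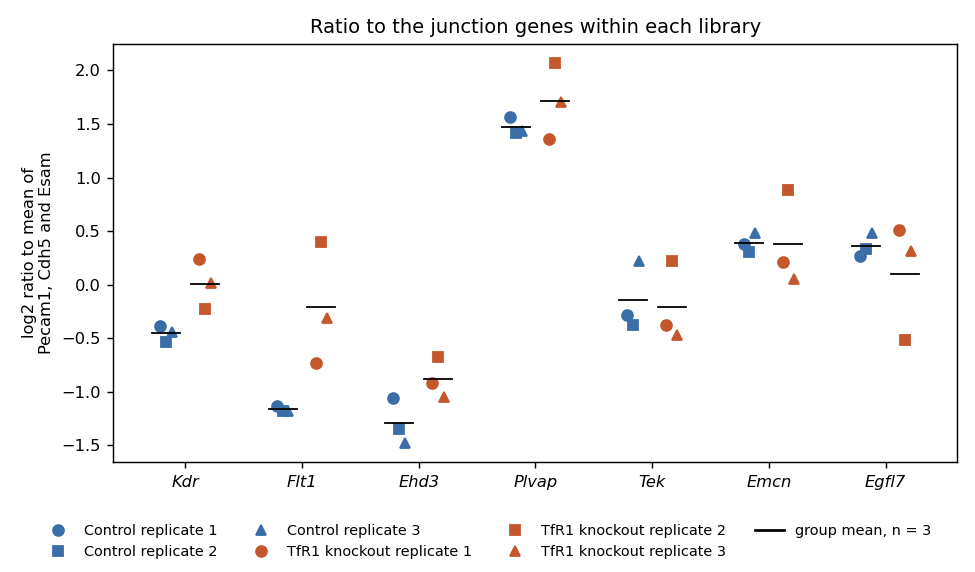
Log2 ratio of each of 7 endothelial genes to the mean log2 level of Pecam1, Cdh5 and Esam in the same library, with a line at each group mean (n = 3). The Control libraries of Flt1 lie between -1.18 and -1.13, below the 3 knockout libraries, Kdr and Ehd3 also separate by group, and Plvap, Tek, Emcn and Egfl7 overlap.

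The promoters of Flt1, Kdr and Ehd3 are shown because their ratios to the mean of the 3 junction genes did not overlap between the groups. Each window holds 250 bases before and 50 bases after a transcription start in RefSeq (GRCm38.p6, the coding strand of the gene written 5′ to 3′), and 6 of the 10 genes were matched to a window. Capitals mark the core words AGGAAG and CGGAAG of ETS factors, searched on both strands (so also CTTCCT and CTTCCG). ETS factors such as Erg and Fli1 are regulators of many endothelial genes. The Flt1 window lies at chr5:147725962-147726261 on the minus strand, the Kdr window at chr5:75978406-75978705 on the minus strand and the Ehd3 window at chr17:73804591-73804890 on the plus strand.
Flt1: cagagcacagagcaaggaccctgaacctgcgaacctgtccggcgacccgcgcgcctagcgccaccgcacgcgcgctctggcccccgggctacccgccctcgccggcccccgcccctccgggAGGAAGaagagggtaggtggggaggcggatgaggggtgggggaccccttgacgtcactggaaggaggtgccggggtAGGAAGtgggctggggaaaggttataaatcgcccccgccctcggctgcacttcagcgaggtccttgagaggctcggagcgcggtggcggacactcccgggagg
Kdr: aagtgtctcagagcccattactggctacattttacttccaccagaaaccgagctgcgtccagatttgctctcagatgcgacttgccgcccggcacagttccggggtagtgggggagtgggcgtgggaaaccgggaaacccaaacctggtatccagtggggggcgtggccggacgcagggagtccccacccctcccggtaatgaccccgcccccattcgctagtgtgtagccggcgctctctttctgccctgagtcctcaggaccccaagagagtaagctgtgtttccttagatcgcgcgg
Ehd3: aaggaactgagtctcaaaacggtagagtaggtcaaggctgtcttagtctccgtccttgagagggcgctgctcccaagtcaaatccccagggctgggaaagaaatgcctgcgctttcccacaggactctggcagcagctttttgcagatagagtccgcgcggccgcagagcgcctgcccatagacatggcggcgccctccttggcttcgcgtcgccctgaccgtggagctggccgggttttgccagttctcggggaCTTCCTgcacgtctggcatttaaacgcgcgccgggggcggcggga
In the Flt1 window a word began 129 and 53 bases before the start, in the Ehd3 window a word began 5 bases past it, and in the Kdr window these letters were not found. Of the 8 windows of the 6 matched genes 5 held a word, and 15265 of 32851 promoter windows of the same length (46.5%) held one, so the word is common. Among the factors themselves, Erg had a log2 fold change of -0.38 (DESeq2 adjusted p 0.47) and Fli1 of -0.21 (adjusted p 0.69), neither called, while Ets2, another ETS factor, rose (0.63, adjusted p 0.00395).

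Within the groups the 10 genes varied as 2 sets. In TfR1 knockout replicate 2, Cdh5, Esam, Kdr and Egfl7 had the lowest value of the 3 knockout libraries, at 0.708, 0.785, 0.698 and 0.468 times the mean of the other two. Pecam1, Flt1, Tek, Emcn, Plvap and Ehd3 had the highest, at 1.26, 1.64, 1.39, 1.50, 1.27 and 1.10 times that mean. Genes of the same cells, and even genes of the same role, thus fell on opposite sides, with Pecam1 apart from Cdh5 and Esam, and Flt1 apart from Kdr.

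The division was described by the deviation of each log2 value from its group mean over the 6 libraries. Pairwise correlations of these deviations had a median of 0.94 among the 4 genes that were low in TfR1 knockout replicate 2 (6 pairs, 0.90 to 0.96). Among the other 6 genes the median was 0.86 (15 pairs, 0.77 to 0.97), and between the sets it was 0.22 (24 pairs, -0.26 to 0.52). The sets were defined by 1 of these libraries, so the figures describe the pattern and test nothing. All 6 values of a gene share the depth and makeup of the libraries, and Control replicate 3 was high for both sets.

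Several libraries also differed by base composition. In 4 bins of rising GC content, the median log2 deviation of genes in TfR1 knockout replicate 2 was 0.14, 0.07, -0.01 and -0.11. TfR1 knockout replicate 1 had the opposite trend, with -0.10, -0.04, 0.02 and 0.10. Between the lowest and the highest bin, TfR1 knockout replicate 3 went from -0.04 to 0.01 and Control replicate 3 from 0.04 to -0.10. The GC content of the 4 low genes ran from 49.4% (Kdr) to 57.1% (Egfl7) and that of the other 6 from 41.5% (Emcn) to 60.6% (Plvap), so the sets overlapped in it. With trends over GC content and length removed from each library, a setting added after the data were seen, the log2 fold change of Flt1 was 0.86 (DESeq2 adjusted p 0.0418) and that of Egfl7 was -0.32. Whether base composition plays a part in the division was not tested further.

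**Figure D4:**
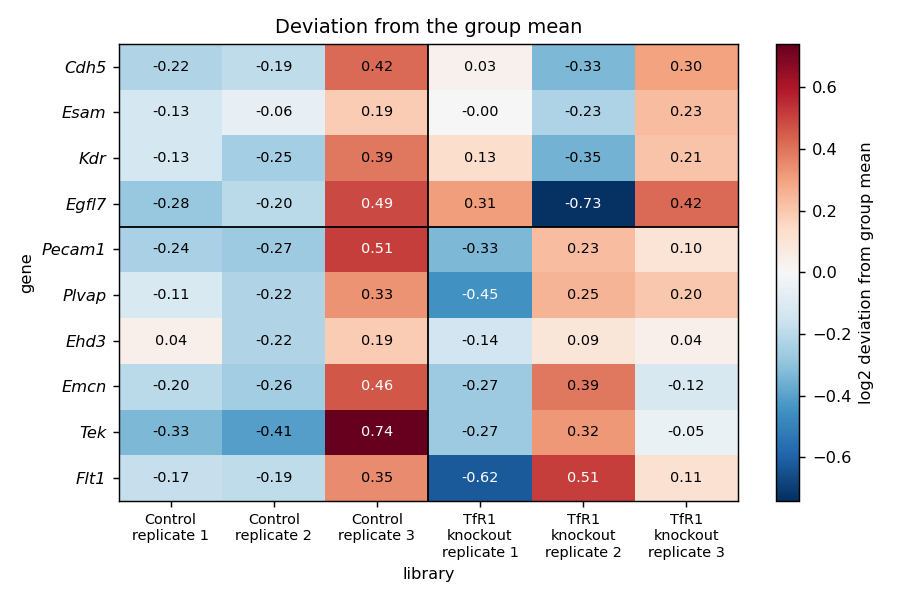
Log2 deviation of each endothelial gene (rows) from the mean of its own group in each library (columns), with red above and blue below the mean. Control replicate 3 is red for all 10 genes, and TfR1 knockout replicate 2 is blue for the upper 4 genes, down to -0.73 for Egfl7, and red for the lower 6, up to 0.51 for Flt1.

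Among the ligands and partner receptors of the VEGF and angiopoietin systems, the angiopoietin ligands fell. Of 13 such genes, 0 rose and 3 fell in DESeq2, Angpt2, Angpt1 and Angptl2. This is 23.1% called, beside 14.9% over all genes tested, and the median log2 fold change was -0.20. The median was -0.05 without Control replicate 3 and 0.06 with TfR1 knockout replicate 2 also out. Angpt2 had 1256, 1273 and 886 normalized counts in Control and 263, 328 and 391 in TfR1 knockout kidneys. All knockout values were less than the lowest Control value, and the log2 fold change was -1.80 (SE 0.25, DESeq2 adjusted p 3.66e-11, edgeR 0.00602), called in all 6 fits that left out a library.

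Angpt1, the activating ligand of Tek, had 764, 785 and 1057 normalized counts in Control and 419, 582 and 494 in TfR1 knockout kidneys. The groups did not overlap, and it fell by 0.80 on the log2 scale (SE 0.23, DESeq2 adjusted p 0.00591, edgeR 0.0515). The secreted Angptl2, a protein related to the angiopoietins that does not bind Tek, had means of 2974 ± 407 and 1724 ± 459 (log2 fold change -0.79, DESeq2 adjusted p 0.018, edgeR 0.0818), and it was called in 2 of the 6 fits that left out a library. Both Tek ligands thus fell while the Tek count did not differ measurably. The log2 ratio of Angpt2 to Angpt1, chosen after the values were seen, was 0.72, 0.70 and -0.25 in Control and -0.67, -0.83 and -0.34 in TfR1 knockout kidneys.

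Vegfa itself had 5087, 5288 and 3912 normalized counts in Control and 7184, 3900 and 5582 in TfR1 knockout kidneys, and the groups overlapped (log2 fold change 0.22, SE 0.27, DESeq2 adjusted p 0.635). The other ligands Vegfb (log2 fold change -0.15, adjusted p 0.808), Vegfc (-0.21, 0.587), Figf, which encodes VEGF-D (0.11, 0.887), and Pgf (-0.33, 0.642) did not pass in DESeq2. Nor did the co-receptors Nrp1 (0.29, adjusted p 0.385) and Nrp2 (-0.20, 0.662), the lymphatic VEGF receptor Flt4 (-0.33, 0.552), the Tek partner Tie1 (-0.06, 0.907) or Ptprb (0.41, 0.393), the phosphatase that acts on Tek. Pericytes and smooth muscle, a source of Angpt1, had marker sums of 18068 to 30473 normalized counts in Control and 20509 to 26040 in TfR1 knockout kidneys, and of 8 such markers 1 rose and 0 fell (2 rose without Control replicate 3 and 3 with both set-apart libraries out). The marker that rose was Gata3, which collecting duct cells also express (log2 fold change 0.79, DESeq2 adjusted p 0.00517, edgeR 0.0537), whereas the abundant Rgs5 (-0.09) and Acta2 (-0.27) were not called.

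Other endothelial genes, taken from 8 lists that leave out the 10 members, gave 11 higher and 8 lower genes of 107 tested, which is 17.8% beside 14.9% over all genes tested. With edgeR 5 were higher and 2 lower, where 6.02% of all genes tested were called. The 14.9% of DESeq2 is the background for the count of called genes in every list. Of 31 other pan-endothelial genes tested, 2 rose, Adgrf5 and Cyyr1, and 0 fell (6.45% called). Their median log2 fold change was -0.05. Without Control replicate 3 the median was 0.19, and 5 rose and 0 fell, where 14.3% of all genes were called. With TfR1 knockout replicate 2 also out, the median was 0.25, and 7 rose and 0 fell, where 18.0% of all genes were called. Both the count and the sign of the median thus depended on Control replicate 3. Adgrf5, an adhesion receptor, had means of 4363 ± 626 and 8139 ± 3522 (log2 fold change 0.90, DESeq2 adjusted p 0.0322, edgeR 0.118), and its highest library was TfR1 knockout replicate 2 with 12166. Without that library its log2 fold change was 0.49 (DESeq2 adjusted p 0.0955). Cyyr1 had 51.9, 58.2 and 122 normalized counts in Control and 135, 331 and 155 in TfR1 knockout kidneys (log2 fold change 1.43, DESeq2 adjusted p 0.0236, edgeR 0.117).

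Among 18 endothelial transcription factor genes 3 rose and 0 fell, and the list median was -0.21. That median rested on Control replicate 3. It was 0.01 without Control replicate 3 and 0.14 with TfR1 knockout replicate 2 also out. The share called, 16.7%, was near the 14.9% over all genes tested. Klf4 and Klf2, which respond to blood flow in endothelial cells and are also expressed in other cells, had the largest differences of the 3 that rose. Klf4 had 425, 415 and 540 normalized counts in Control and 1527, 1235 and 1059 in TfR1 knockout kidneys, a log2 fold change of 1.47 (SE 0.22, DESeq2 adjusted p 3.53e-09, edgeR 0.00917). Klf2 had 668, 609 and 714 in Control and 1829, 1132 and 1064 in TfR1 knockout kidneys (log2 fold change 1.02, SE 0.26, DESeq2 adjusted p 0.00156, edgeR 0.0468). Neither gene overlapped between the groups, and both were called in all 6 fits that left out a library. Ets2 rose less (log2 fold change 0.63, DESeq2 adjusted p 0.00395, edgeR 0.0521). Lyl1 (log2 fold change -1.14, DESeq2 adjusted p 0.296) and the repressor gene Bcl6b (-1.13, adjusted p 0.0545), named after their values were seen, differed by more than Klf2 but did not pass. Bcl6b had 928, 928 and 968 normalized counts in Control and 562, 157 and 570 in TfR1 knockout kidneys, with no overlap.

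Genes of particular vessel types moved in both directions. Of 10 glomerular capillary genes 2 rose and 1 fell. Nostrin, which binds the endothelial nitric oxide synthase, had 144, 104 and 237 normalized counts in Control and 357, 609 and 453 in TfR1 knockout kidneys (log2 fold change 1.55, SE 0.36, DESeq2 adjusted p 3.84e-04, edgeR 0.0452). The ubiquitin ligase gene Hecw2 had a log2 fold change of 1.19 (DESeq2 adjusted p 0.00566, edgeR 0.0684), and Tspan7 of -0.46 (DESeq2 adjusted p 0.0439, edgeR 0.0865), a call kept in only 1 of the 6 fits that left out a library. Podocytes, which face these capillaries, had marker sums of 12434 to 19725 in Control and 18160 to 21714 in TfR1 knockout kidneys. Of 8 podocyte markers 1 rose, Wt1 (log2 fold change 1.20, DESeq2 adjusted p 3e-06), while the abundant Podxl (0.28) and Synpo (0.15) were not called.

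Of 10 peritubular, vasa recta and venous genes 0 rose and 3 fell, with a list median of 0.08. Slc14a1, the urea transporter of the descending vasa recta, had 262, 234 and 254 normalized counts in Control and 99.4, 74.2 and 82.3 in TfR1 knockout kidneys. The libraries were tight within each group and far apart between them (log2 fold change -1.55, SE 0.23, DESeq2 adjusted p 2.58e-09, edgeR 0.0116). Igfbp5, a binding protein for insulin-like growth factors that other kidney cells also express, had a log2 fold change of -0.76 (DESeq2 adjusted p 0.00622, edgeR 0.0796). Aplnr, the apelin receptor of veins and sprouting capillaries, had 2857, 2830 and 5323 in Control and 1545, 629 and 2424 in TfR1 knockout kidneys (log2 fold change -1.26, DESeq2 adjusted p 0.0426, edgeR 0.151), and it was called in 1 of the 6 fits that left out a library. Without Control replicate 3 its log2 fold change was -0.89 (adjusted p 0.206).

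Its ligand Apln, made by endothelial tip cells, had 749, 815 and 608 normalized counts in Control and 357, 42.2 and 120 in TfR1 knockout kidneys, so all 3 knockout values lay below the Control range. The log2 fold change was -2.06 (SE 0.59, DESeq2 adjusted p 0.00622, edgeR 0.102). Apln stood with Angpt2 as the 2 genes that fell among 14 activation and sprouting genes. Of these 2 rose and 2 fell (28.6% called, beside 14.9% over all genes tested), with a median of 0.17. Cell cycle markers, which mark dividing cells of any type, fell in 4 of 5 cases, with Mki67 at a log2 fold change of -1.49 (DESeq2 adjusted p 2.95e-05) and Top2a at -1.14 (adjusted p 5.27e-04). Their sums were 6768 to 8550 in Control and 2447 to 4185 in TfR1 knockout kidneys, and how far dividing endothelial cells enter them was not tested.

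The 2 activation genes that rose were Edn1 and Icam1. Edn1, the precursor gene of the constrictor peptide endothelin, which tubule cells also make, had 110, 132 and 135 normalized counts in Control and 452, 820 and 479 in TfR1 knockout kidneys (log2 fold change 2.22, SE 0.30, DESeq2 adjusted p 1.43e-11, edgeR 0.00694). Icam1, a leukocyte adhesion molecule of activated endothelium that leukocytes and injured tubule cells also carry, had 353, 385 and 594 in Control and 911, 1011 and 852 in TfR1 knockout kidneys (log2 fold change 1.06, SE 0.25, DESeq2 adjusted p 5.93e-04, edgeR 0.038). Both genes were separated between the groups and called in all 6 fits that left out a library. Vwf, drawn as an endothelial storage protein after its values were seen, had 276, 220 and 327 in Control and 266, 232 and 320 in TfR1 knockout kidneys (log2 fold change -0.01, DESeq2 adjusted p 0.988). Macrophage markers were also higher in the knockout kidneys, among them Lyz2 (log2 fold change 1.81), C1qa (1.54), Itgam (2.44) and Cd14 (3.08). Their sums in TfR1 knockout replicates 1, 2 and 3 were 9736, 7652 and 7913 normalized counts. TfR1 knockout replicate 2, with the highest Edn1 and Icam1, thus had the lowest of these sums. The part of macrophages in both differences was not tested.

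**Figure D5:**
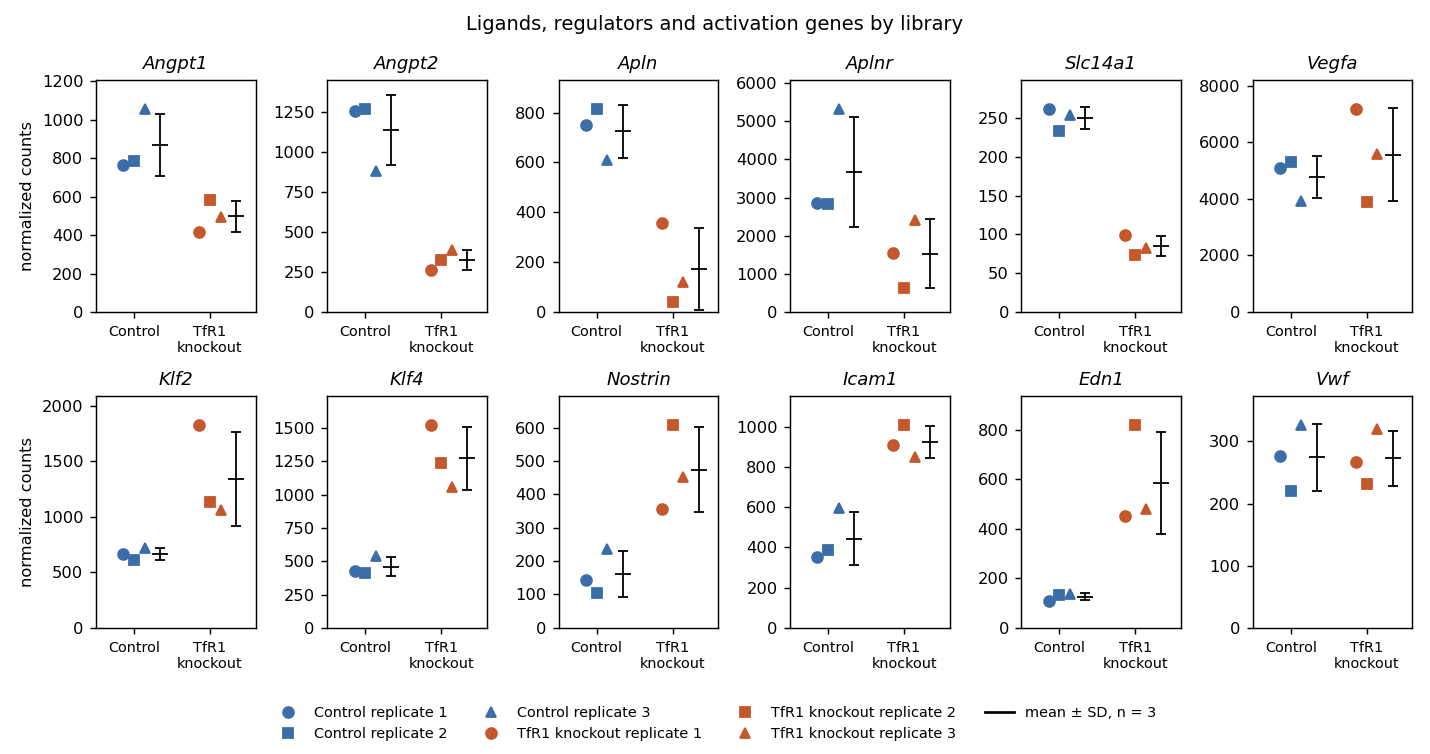
Normalized counts (linear axes from 0) of 12 ligand, regulator and activation genes in each library, with the mean and SD of each group (n = 3). Angpt1, Angpt2, Apln, Aplnr and Slc14a1 lie below the Control range in all 3 knockout libraries, Klf2, Klf4, Nostrin, Icam1 and Edn1 lie above it, and Vegfa and Vwf overlap.

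Arterial and lymphatic genes complete the vessel types. Of 10 arterial genes 0 passed in either direction in DESeq2, with a median of -0.02, and at an unadjusted p under 0.05 there were 0 higher and 1 lower with DESeq2 and with edgeR. The most abundant was Fbln5, an elastic fibre protein (8360, 9432 and 17622 in Control, 7333, 5178 and 7621 in TfR1 knockout kidneys, DESeq2 adjusted p 0.0691), followed by the chemokine gene Cxcl12 (log2 fold change -0.13, adjusted p 0.66). Of 6 lymphatic genes 2 rose, Lyve1 (79.2, 41.8 and 104 against 146, 188 and 268, log2 fold change 1.42, DESeq2 adjusted p 0.00602, edgeR 0.0805) and the weakly counted Mmrn1 (25.3 ± 7.55 against 62.0 ± 5.03, adjusted p 0.0108, edgeR 0.0652). Mmrn1 was called in only 2 of the 6 fits that left out a library. The 2 called lymphatic genes are 33.3% of the list, beside 14.9% over all genes tested. Lyve1 is also carried by macrophages, and Prox1, which defines lymphatic endothelium but is also made by tubule cells, had 103 ± 51.1 and 49.9 ± 7.51 normalized counts (adjusted p 0.0938).

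Other cells of vessels and blood were checked by their markers. Platelet markers were near the floor (summed 251 to 379 in Control and 359 to 470 in TfR1 knockout kidneys, 0 of 4 tested called by DESeq2 and 0 at an unadjusted p under 0.05), with Itga2b at an adjusted p of 0.325 and Pf4 at 0.716 (DESeq2). Of 7 erythroid markers 4 globin genes were at 0 in every library, and of the 3 tested 1 fell, Slc4a1, which intercalated cells of the collecting duct also express (log2 fold change -1.75, DESeq2 adjusted p 2.49e-04), with Alas2 at -0.03. Thick ascending limb markers fell in 4 of 5 cases and proximal tubule markers in 2 of 5, led by Umod (log2 fold change -3.65), Cldn16 (-1.52), Kcnj1 (-1.44), Slc12a1 (-1.19), Slc5a2 (-5.12) and Lrp2 (-1.48), so the mix of tubule RNA differed between the groups in which endothelial levels were compared.

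Apart from the 10 themselves, the genes whose levels across the 6 libraries were most like the mean of the 10 endothelial genes were Abca9 (Pearson r 0.993), Gli1 (0.991), Cald1 (0.988), Thsd1 (0.988) and Rergl (0.988), of 12104 genes compared. Only the 10 were left out, so genes of the lists above were among those compared. In all, 153 genes (1.26%) reached 0.9 or above, and all correlations share the same 6 libraries. The standardized mean of the 10 endothelial genes took the values -0.62, -0.77 and 0.96 in the Control libraries and -0.28, 0.13 and 0.57 in the knockout libraries. Gli1, a Hedgehog target of stromal cells, had 165, 157 and 569 normalized counts in Control and 238, 283 and 370 in TfR1 knockout kidneys, so its likeness, like that of the others, followed the high value of Control replicate 3. None of these 5 genes differed measurably between the groups (DESeq2 adjusted p 0.754 to 1).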

How the data were processed

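Poly-A RNA from 6 kidneys was sequenced single-end. The authors used CASAVA 1.8.2, trimmed the reads with Trimmomatic, aligned them to mm9 with TopHat2 2.0.11, kept unique alignments and deposited the raw read counts that HTSeq gave for each gene, not normalized. Strand setting and HTSeq version are not given in the sources used here. Unique counting leaves out reads shared with near-identical genes.

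The 6 count columns were matched to the sample labels, and totals ran from 16591156 to 22898008. DESeq2 (1.42.0, R 4.3.3), a tool the study also names, compared the groups with median-ratio size factors, a Wald test and no covariate. Benjamini-Hochberg adjustment ran over 16509 genes left by independent filtering (mean count of at least 3.51). At the 2-fold rule the study reports fewer genes than the 728 higher and 736 lower found here, so this fit does not reproduce its counts. The threshold for a call was 0.05 on the adjusted p, with a 2-fold change as a second rule. Alternatives were edgeR 4.0.16 (quasi-likelihood, TMM), limma-voom 3.58.1, other size factors, other filters (at least 10 counts in 3 libraries), a replicate block and leaving out each library. Ratios were tested by exact permutation. Code was tested on simulated data.

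The 10 genes and all lists were chosen with earlier results of these data known. Named genes were the 10, the VEGF and angiopoietin list, up to 4 called genes per other list with the largest changes at a mean of at least 50 (the 2 most abundant where fewer than 2 passed), Tfrc, and the 5 genes most like the members at a mean of at least 100. Positions and exon lengths came from the GENCODE annotation of mm9 and promoters from RefSeq GRCm38.p6, a different build.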

Additional observations from a re-analysis of the deposited data

How the results depend on the processing

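With 3 libraries per group, differences smaller than the intervals given could not be seen. The 2463 genes called became 921 with edgeR and 941 with limma-voom, and 1239 (without Control replicate 1) to 3205 when a library was left out. The counts were 1332 without Control replicate 2 and 1512 without TfR1 knockout replicate 3. Genes at least 2-fold higher went from 728 to 380 and 365, and to 537 to 821 without a library; those at least 2-fold lower went from 736 to 353 and 372, and to 498 to 1146. Of the 10 endothelial genes, 0 were called with edgeR, limma-voom or total-count size factors, 2 with both set-apart libraries out, and 0 to 2 without a library. Genes of the other endothelial lists went from 19 to 7 with edgeR and 7 with limma-voom, 31 with both out, and 10 to 24 without a library. The median of -0.06 to 0.33 and the 1 to 4 separated genes without a library were highest without Control replicate 3. With the replicate block 2172 genes (23 of the lists, 1 of the 10) were called. The numbers did not pair the libraries (correlations -0.0371, -0.0321 and 0.0854), and the block ended the calls of Mmrn1 and Tspan7. Total-count scaling lowered the median of all genes to -0.097.

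Reversed log2 values, none of them called, were as follows. With both set-apart libraries out, Cdh5 was 0.12, Esam 0.13, Tek 0.10 and Egfl7 0.29. Emcn was 0.03 with GC and length trends removed. When a library was left out, Esam ran from -0.20 to 0.03, Tek from -0.40 to 0.27, Emcn from -0.29 to 0.20 and Egfl7 from -0.47 to 0.01, with values above 0 without Control replicate 3 for all 4. The ratio difference of Tek was 0.15 against Cdh5 alone and that of Emcn 0.20 against Cdh5 and 0.03 against Esam. These differences ran from -0.28 to 0.12 for Tek, -0.26 to 0.16 for Emcn and -0.47 to 0.05 for Egfl7 when a library was left out. Of 160 values of the 10 genes under the alternatives, 138 kept direction and side of the threshold. In the list genes, calls were lost without TfR1 knockout replicate 3 for Angpt1 (DESeq2 adjusted p 0.0621) and Apln (0.0595), without Control replicate 1 for Igfbp5 (0.0719), without Control replicates 1 or 2 for Hecw2, and without either of these or TfR1 knockout replicate 2 for Adgrf5 and Cyyr1. Ets2 lost its call without Control replicate 1 or 2 or TfR1 knockout replicate 3, Lyve1 without Control replicate 2 or TfR1 knockout replicate 3, and Angptl2 without any Control replicate or TfR1 knockout replicate 3 (each left out singly). Mmrn1 lost its call without Control replicate 2 (0.124) or 3 (0.0652) or TfR1 knockout replicate 2 (0.073) or 3 (0.0803). Aplnr lost it without any library but TfR1 knockout replicate 3, and Tspan7 without any but Control replicate 3. Of 304 values of the 19 called list genes, 237 did and 67 were no longer past it. The causes were not tested.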
